A study of Mus musculus with 6 samples.

Results

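In mouse muscle, 3 FoxO transcription factors and 7 ubiquitin ligases linked to muscle breakdown were followed in mice with and without the long non-coding RNA lnc-ORA. The 10 genes were taken by symbol from a deposited table of 11815 genes, and all 10 were found in it. They are Foxo1, Foxo3 and Foxo4, the F-box proteins Fbxo32, Fbxo30, Fbxo31 and Fbxo40, and the muscle RING finger proteins Trim63, Trim54 and Trim55. The study asked how loss of lnc-ORA bears on muscle fibre type. RNA came from the gastrocnemius, a calf muscle of mostly fast fibres. An age, 15 weeks, is given for the knockout mice. The wild-type (WT) group had 3 libraries, WT2, WT3 and WT4. The knockout (KO) group had 3 libraries, KO1, KO2 and KO3, from mice of C57BL/6 background in which Cas9 and a pair of guides had removed 5147 bp holding the whole lnc-ORA transcript. Founders were bred to wild-type mice, the deletion is not limited to muscle, and the labels do not give zygosity or say whether libraries came from separate animals. The p-values therefore measure the spread between these libraries, which may be technical.

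FoxO factors are forkhead transcription factors. Insulin and IGF signalling through the kinase AKT phosphorylates them and keeps them out of the nucleus, and in fasting, denervation or glucocorticoid excess they enter it and switch on genes of protein breakdown. Fbxo32 (atrogin-1) is the substrate-binding subunit of an SCF ubiquitin ligase, and Trim63 (MuRF1) is a RING ligase of the sarcomere. Both are textbook markers of muscle wasting and FoxO targets. RNA levels do not report on the phosphorylation or the location of FoxO proteins.

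The start of the Trim63 gene holds a binding motif for each of the regulators named above, so its promoter is shown beside that of its relative Trim54. RefSeq promoter windows (GRCm38.p6, 250 bases before to 50 bases after the start) matched 7 of the 10 genes, with 8 windows in all. No window matched Fbxo32, Foxo4 or Trim55, so the promoters of these genes were not searched for motifs. Capitals mark the FoxO motif GTAAACA, read on either strand (TGTTTAC on the other), and the short glucocorticoid receptor motif AGAACA, read on either strand (TGTTCT on the other). The windows are chr4:134314870-134315169 for Trim63 and chr5:31116362-31116661 for Trim54, both on the plus strand.
Trim63: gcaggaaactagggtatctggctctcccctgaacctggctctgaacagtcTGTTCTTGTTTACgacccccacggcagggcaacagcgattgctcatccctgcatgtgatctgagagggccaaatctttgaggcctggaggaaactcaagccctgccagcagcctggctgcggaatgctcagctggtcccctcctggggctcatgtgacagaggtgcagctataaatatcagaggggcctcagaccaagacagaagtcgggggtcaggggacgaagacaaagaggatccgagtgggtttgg
Trim54: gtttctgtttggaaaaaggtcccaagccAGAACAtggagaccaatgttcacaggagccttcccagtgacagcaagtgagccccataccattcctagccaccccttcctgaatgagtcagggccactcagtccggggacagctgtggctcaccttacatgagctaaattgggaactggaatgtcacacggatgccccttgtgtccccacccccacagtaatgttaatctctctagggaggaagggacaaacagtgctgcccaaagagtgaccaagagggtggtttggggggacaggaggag
In the Trim63 window TGTTCT, at -200 to -195 from the start, runs directly into TGTTTAC, at -194 to -188. The FoxO motif was found in 1 of the 8 windows, that of Trim63, and in 3.65% of the 32851 RefSeq windows. The short glucocorticoid motif was found in 3 windows, of Trim63, Trim54 and Fbxo40, and in 19.0% of all windows. The full glucocorticoid response element, a palindrome of the short motif, had an exact match in none of the 8 windows and in 0.00913% of all. In the Trim63 window the short motif and the bases just before it differ from the full element at 1 letter. Inexact matches were not counted in any window, so how common they are was not tested. The E-box CANNTG was in 5 of the 8 windows and in 72.3% of all. These are matches of letters and not measured binding.

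The 6 libraries held 54370181 to 69693905 counted reads. The values are RPKM, reads scaled to gene length and to the counted reads of the library, and levels of different genes are compared on this per-length scale. Tests were made with limma on log2(RPKM + 1) for the 7574 genes that reached 1 RPKM in at least 3 libraries, with Benjamini-Hochberg adjustment over all of them, and a gene was called at an adjusted p under 0.05. Among these genes 17.3% were called, 3.83% higher and 13.5% lower in KO, and 33.4% had an unadjusted p under 0.05. With library medians made equal the shares were 7.95% and 8.78%, and the median log2 fold change of all tested genes moved by 0.10, from -0.09 to 0.01. Muscle fibre markers were abundant, with summed RPKM of 78044 to 85062 in WT and 86228 to 89206 in KO, and all 9 were present. The 6 Schwann cell markers summed to 31.2 to 49.7 RPKM in WT and 7.14 to 9.86 in KO, and the 6 endothelial markers to 16.3 to 25.2 and 12.9 to 14.1. Of 5 adipocyte markers the table held Fabp4, at 26.9 to 34.3 RPKM in WT and 19.1 to 22.3 in KO (limma adjusted p = 0.0140, not called without KO3). The 6 fibro-adipogenic markers summed to 14.0 to 23.5 and 21.3 to 25.7 RPKM, and Smoc2 and Col3a1 among them were called higher (adjusted p = 0.0398 and 0.0345), though not without WT3, WT4 or any KO library. Macrophage (3 of 6 markers present), satellite cell (2 of 4), smooth muscle and red blood cell sums overlapped between the groups. In bulk tissue, fewer cells of a type and less RNA per cell cannot be told apart. The part of these shifts in the results that follow was not tested.

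Of the 10 genes, 9 passed the filter. Fbxo32 and Fbxo31 fell, Trim55 rose, and the other 6 tested genes were not called. Of all tested genes 13.5% were called lower and 3.83% higher. Foxo1, the gene under the filter, rose in a fit of all 11815 genes, where 3.20% were called higher and 12.4% lower. In limma-voom on recovered reads, which called the same 3 of the 9, 4.09% of the tested genes were higher and 14.3% lower. In a fit with replicate number as a block 4.98% were higher and 15.5% lower. The groups did not overlap for 2 genes that were higher in KO (Foxo1 and Trim55) and 4 that were lower (Fbxo32, Fbxo31, Foxo4 and Trim54), against 8.29% and 29.9% of all genes in the table and 9.22% and 30% of the tested genes. The median log2 fold change was -0.17 over the 9 tested genes and -0.09 over all tested genes.

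**Figure D1:**
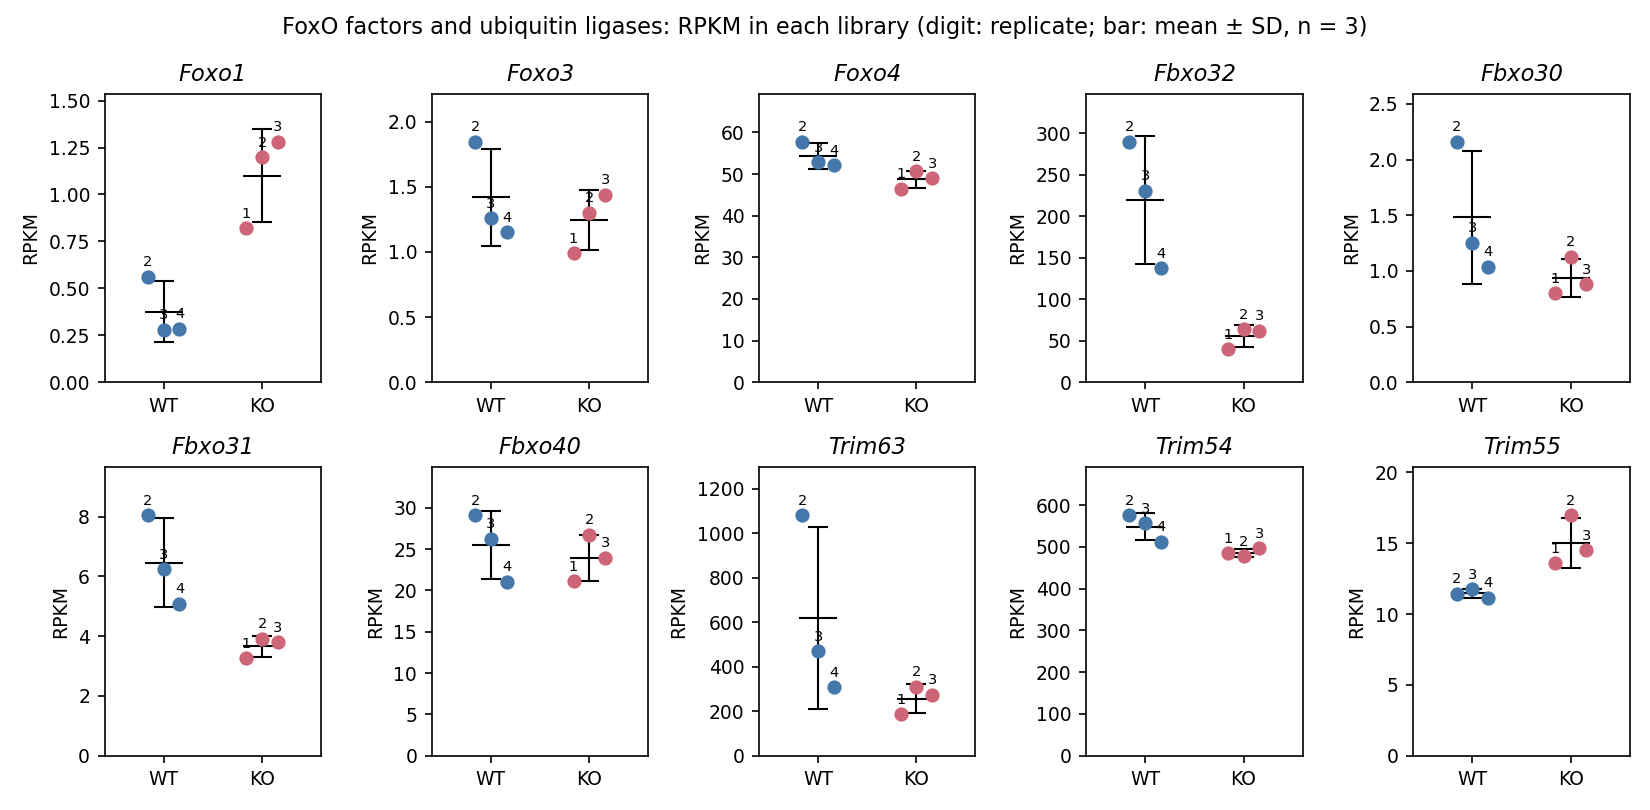
RPKM of each of the 10 genes (vertical axes from 0, a scale for each gene) in the 3 WT and 3 KO libraries, with the library number at each point and bars for the mean ± SD. Fbxo32 and Fbxo31 lie lower and Foxo1 and Trim55 higher in every KO library than in any WT library, while Trim63 overlaps at 308 RPKM in WT4 and 309 in KO2.

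Among the FoxO factors the RNA of Foxo4 was by far the most abundant. Foxo4, an X-linked FoxO factor, made up 96.8% ± 0.720 of the summed FoxO RPKM in WT and 95.4% ± 0.762 in KO (SD over 3 libraries). Its level was 57.8, 52.9 and 52.1 RPKM in WT2, WT3 and WT4 and 46.5, 50.7 and 49.0 in KO1, KO2 and KO3. The groups lay close together without overlapping, and the log2 fold change of -0.15 (SE 0.08) was not called by limma (adjusted p = 0.231).

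Foxo1, the FoxO factor best known in muscle from fasting, rose from the lowest level of all 10 genes. It stood at 0.561, 0.280 and 0.285 RPKM in WT2, WT3 and WT4 and at 0.820, 1.2 and 1.28 RPKM in KO1, KO2 and KO3. All 3 KO libraries were above all 3 WT libraries, and the ratio of the means was 2.93. These levels rest on 132 to 339 reads per WT library and 488 to 679 per KO library over 8665 bases of exon. With no filter on low values the limma log2 fold change on the log2(RPKM + 1) scale was 0.61 (SE 0.11, adjusted p = 0.00887), among 11815 genes of which 3.20% were called higher. The added pseudocount shrinks so low a gene. On the whole reads recovered from the RPKM, limma-voom gave 1.57 (SE 0.27, adjusted p = 0.00668), where 3.42% of genes were called higher. In the authors' deposited table the log2 fold change was 1.39 (FDR = 0.0395), and 0.711% of genes passed as higher there. Leaving out each library in turn kept the limma call, with adjusted p of 0.00462 to 0.0429.

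Foxo3, the factor most studied as a driver of Fbxo32, ranged from 1.15 to 1.85 RPKM in WT and from 0.992 to 1.44 in KO, so the groups overlapped. Its log2 fold change of -0.10 (SE 0.12) was not called by limma (adjusted p = 0.589), and its direction turned to 0.041 in the authors' deposited table and to 0.020 without WT2. Foxo1 RNA lay nearer to Foxo3 RNA in KO than in WT. The log2(RPKM + 1) of Foxo1 minus that of Foxo3 was -0.81 ± 0.06 in WT and -0.10 ± 0.03 in KO (SD over 3 libraries). The groups did not overlap, and the exact two-sided permutation test gave p = 0.1, the smallest that 3 against 3 libraries allow (0.125 after Benjamini-Hochberg adjustment over the 5 pairs compared).

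**Figure D2:**
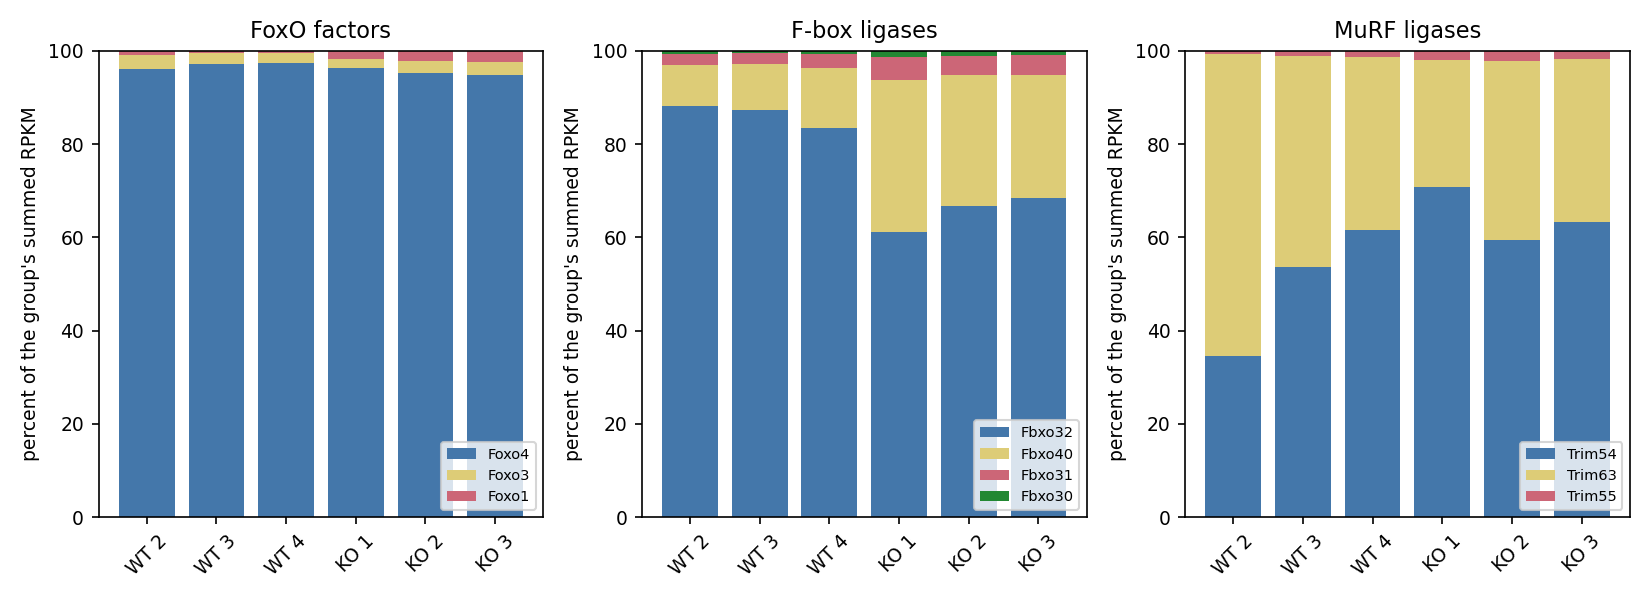
Share of each gene in the summed RPKM of its family (vertical axes, percent) in each library, for the 3 FoxO factors, the 4 F-box proteins and the 3 muscle RING finger proteins. Foxo4 fills at least 94.7% of every FoxO bar, Fbxo32 takes 83.5% to 88.1% of the F-box bars in WT and 61.2% to 68.5% in KO, and Trim63 ranges from 37.1% to 64.8% in WT and from 27.2% to 38.4% in KO.

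Fbxo32 showed the largest change of the 10 genes on the log2(RPKM + 1) scale. It stood at 290 RPKM in WT2, 231 in WT3 and 137 in WT4. In KO1, KO2 and KO3 it stood at 39.7, 64.0 and 62.1 RPKM. Every KO library was below every WT library, and the mean went from 219 ± 76.8 to 55.3 ± 13.5 RPKM (SD over 3 libraries), a ratio of 3.97. The log2 fold change of -1.93 (SE 0.28) was called by limma (adjusted p = 0.00547). It stayed called without each library in turn (adjusted p up to 0.0296), at -1.70 to -2.24. In the authors' deposited table the change was -1.61 with an FDR of 0.0812, above 0.05, in a table where 1.62% of genes had an FDR under 0.05. Fbxo32 had 18936 to 140070 reads per library.

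A non-coding gene on the opposite strand of Fbxo32, Gm15943, had the most similar profile of all tested genes. Likeness was measured as the root mean square distance between log2(RPKM + 1) profiles centred on their means over the 6 libraries, and Gm15943 lay 0.21 from Fbxo32. Genes picked this way share the fall of Fbxo32 by choice, so their own changes are description only. The level of Gm15943 went from a WT mean of 12.9 ± 5.69 RPKM to a KO mean of 3.50 ± 0.886 (SD, 3 libraries each). GENCODE M21 places 186 of the 3821 exon bases of Gm15943 within exons of Fbxo32. Fbxo32 itself was far higher, at means of 219 RPKM in WT and 55.3 in KO. The handling of strand in counting is not stated, so reads of the pair cannot be told apart there. Whether reads of Fbxo32 make up the level of Gm15943, and with it the like profile, was not tested. The other neighbours of Fbxo32 were mt-Tv, a mitochondrial valine tRNA gene (distance 0.26), and Ppp1r15a, a phosphatase subunit of the stress response that acts on translation factor eIF2 alpha (0.26). Ppp1r15a went from 67.2 ± 31.4 to 20.6 ± 3.03 RPKM.

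Fbxo31, an F-box protein known for targeting cyclin D1 after DNA damage, fell as well. It stood at 8.05, 6.24 and 5.09 RPKM in WT2, WT3 and WT4 and at 3.26, 3.92 and 3.79 in KO1, KO2 and KO3. The groups did not overlap, and the log2 fold change was -0.66 (SE 0.14, limma adjusted p = 0.0192). The call ended without WT3, KO1 or KO3 (adjusted p up to 0.0746), and the authors' deposited FDR was 0.108. The gene Gm20388 lies across Fbxo31 on the opposite strand with 0 shared exon bases in GENCODE M21, and its log2 fold change was 0.33 (limma adjusted p = 0.0960).

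The other F-box genes were not called. Fbxo30 (MUSA1), a ligase that BMP signalling holds down in muscle, went from 2.16, 1.25 and 1.04 RPKM in WT2, WT3 and WT4 to 0.801, 1.13 and 0.881 in KO1, KO2 and KO3. KO2 overlapped with WT, and the limma log2 fold change was -0.34 (SE 0.16, adjusted p = 0.171). Fbxo40, a muscle-restricted ligase of the insulin receptor substrate Irs1, ranged from 21.05 to 29.1 RPKM in WT and from 21.1 to 26.8 in KO. Its log2 fold change of -0.08 (SE 0.13, limma adjusted p = 0.708) turned to 0.020 with library medians made equal and to 0.050 in the authors' deposited table. Relative to Fbxo40 in the same library, Fbxo32 was lower in KO by 1.85 log2 units, from 3.004 ± 0.32 to 1.15 ± 0.24 (SD over 3 libraries), with no overlap and the smallest exact permutation p the design allows (0.1; 0.125 adjusted over the 5 pairs).

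Trim63, the ligase most often named together with Fbxo32, varied more between WT libraries than any other of the 10 genes. It stood at 1081 RPKM in WT2, 469 in WT3 and 308 in WT4. In KO1, KO2 and KO3 it stood at 186, 309 and 275 RPKM. The WT libraries thus spanned a ratio of 3.50 and WT4 lay within the KO range. The log2 fold change of -1.10 (SE 0.41) was not called by limma (adjusted p = 0.104). It was -0.60 without WT2 (adjusted p = 0.149) and -1.50 without WT4, where it was called (adjusted p = 0.0265). In the authors' deposited table it was -0.97 (FDR = 0.246).

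Fbxo32 was lower relative to Trim63 in KO. The log2(RPKM + 1) of Fbxo32 minus that of Trim63 was -1.36 ± 0.47 in WT and -2.19 ± 0.06 in KO (SD over 3 libraries). The KO libraries, at -2.25 to -2.13, lay below the WT libraries, at -1.90 to -1.02, and the exact two-sided permutation p was 0.1 (0.125 adjusted). The genes nearest in profile to Trim63 were Fam134b, a receptor for autophagy of the endoplasmic reticulum (distance 0.15), Slc7a2, a transporter of cationic amino acids (0.18), and 1700101I11Rik (0.22). As they were picked for their likeness to Trim63, their own changes are description only. Fam134b went from 45.6 ± 25.1 to 16.4 ± 4.79 RPKM (log2 fold change -1.32). All 3 share with Trim63 the high value in WT2, which is part of the profile they were chosen by.

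**Figure D3:**
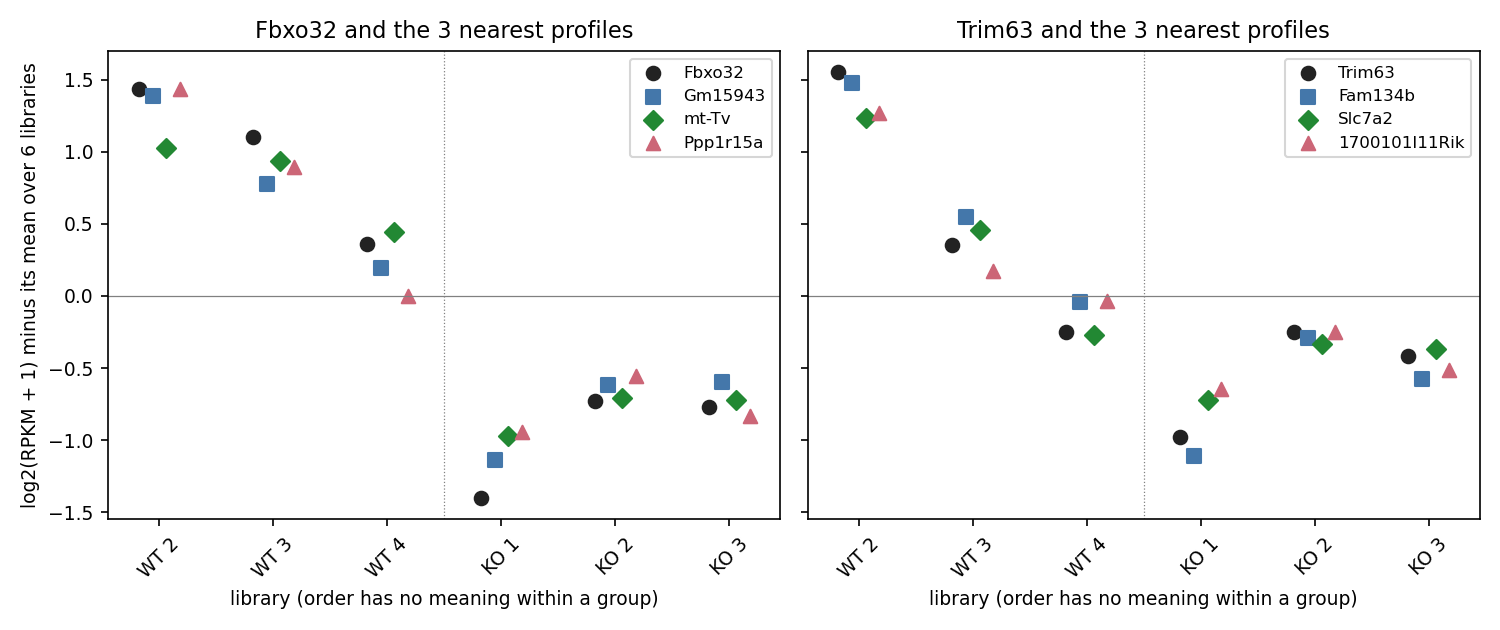
Log2(RPKM + 1) minus its mean over the 6 libraries (vertical axis) in each library for Fbxo32 and its 3 nearest genes, left, and for Trim63 and its 3 nearest genes, right. The Fbxo32 set has every KO library under every WT library, and Trim63 in WT4 lies at the level of KO2. The nearest genes were chosen for this likeness, so their pattern is not a separate result.

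The other muscle RING finger genes went different ways. Trim54 (MuRF3), which binds microtubules and the sarcomere, was the steadiest of the family, at 576, 557 and 512 RPKM in WT2, WT3 and WT4 and 484, 478 and 496 in KO1, KO2 and KO3. The groups did not overlap but differed little, and the log2 fold change of -0.17 (SE 0.08) was not called by limma (adjusted p = 0.196). An antisense gene, Gm15469, shares 382 of its 961 exon bases with Trim54, so reads there cannot be told apart without strand. Its log2 fold change was -0.22 (limma adjusted p = 0.161). Whether reads of Trim54 make up its level was not tested.

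Trim55 (MuRF2), a titin-associated relative, rose. It stood at 11.4, 11.8 and 11.2 RPKM in WT2, WT3 and WT4 and at 13.6, 17.0 and 14.5 in KO1, KO2 and KO3. All KO libraries were above all WT libraries, and the log2 fold change was 0.36 (SE 0.10, limma adjusted p = 0.0387). With library medians made equal it was 0.46 (adjusted p = 0.0130). The call ended without any single library (adjusted p of 0.0568 to 0.112), and the authors' deposited FDR was 0.0555. Trim63 minus Trim55 went from 5.44 ± 0.91 to 3.98 ± 0.26 in log2(RPKM + 1) (SD, n = 3 each; exact permutation p = 0.1, 0.125 adjusted), without overlap. Trim63 minus Trim54 went from -0.02 ± 0.84 to -0.95 ± 0.38, and those groups overlapped (exact permutation p = 0.2, 0.2 adjusted).

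**Figure D4:**
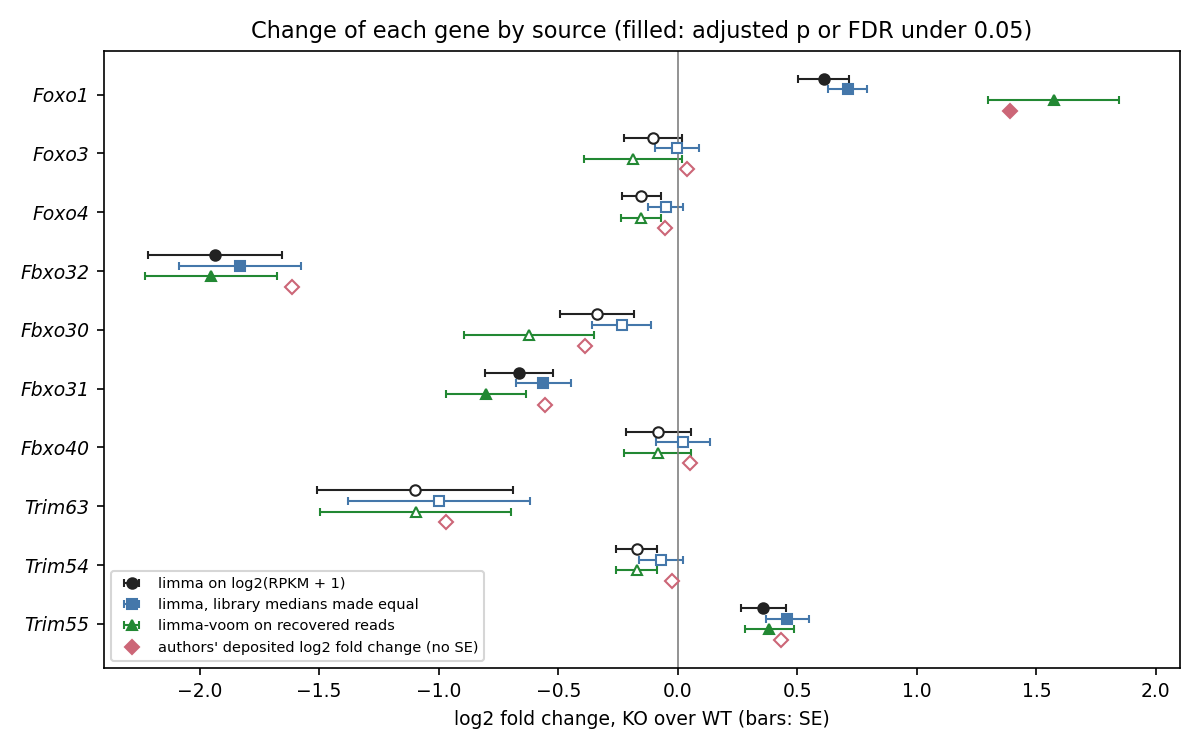
Log2 fold change of KO over WT (horizontal axis, bars for SE) of each gene in limma on log2(RPKM + 1), in limma with library medians made equal, in limma-voom on recovered reads and in the authors' deposited table, with filled symbols at an adjusted p or FDR under 0.05. For Foxo1 the first 3 are fits of all genes. Foxo1 is filled in all 4 sources, Fbxo32, Fbxo31 and Trim55 are filled in the 3 limma fits, and Trim63 is open throughout.

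In order of RPKM the WT muscle ran from Trim63 (mean 619), Trim54 (549) and Fbxo32 (219) through Foxo4 (54.3), Fbxo40 (25.5), Trim55 (11.5) and Fbxo31 (6.46) to Fbxo30 (1.48), Foxo3 (1.42) and Foxo1 (0.376). Only the pairs Trim63 with Trim54 and Fbxo30 with Foxo3 overlapped between neighbours. In KO the order began with Trim54 (486), which lay above Trim63 (257) in every library, and Fbxo32 (55.3) overlapped with Foxo4 (48.7). Foxo3 (1.24), Foxo1 (1.10) and Fbxo30 (0.937) closed the KO order and overlapped with their neighbours.

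Within WT, WT2 was highest for 9 of the 10 genes, all but Trim55, against 60.3% of all tested genes. WT4 was lowest in WT for 9, all but Foxo1, against 44.4%. Within KO, KO1 was lowest for 9, all but Trim54, against 51.8%. Among marker sums, WT2 was the highest WT library for endothelial (25.2 RPKM), fibro-adipogenic (23.5) and smooth muscle (104) markers. The same held for macrophage markers (7.54, 3 of 6 present), satellite cell markers (2.15, 2 of 4) and Fabp4 (34.3), the only adipocyte marker present. WT2 was the lowest for Schwann cell (31.2) and muscle fibre (78044) markers. Their part in these levels was not tested.

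Genes known as FoxO targets were mostly lower in KO muscle. The list of 29 was drawn up after several of its genes had been seen to fall in these libraries, so its counts are description only. Of the 24 tested, 15 fell and none rose, against 13.5% and 3.83% of all tested genes. The median log2 fold change was -0.62 against -0.09 over all tested genes. Cat, the peroxide-degrading enzyme catalase, went from 30.5, 22.1 and 25.9 RPKM in WT2, WT3 and WT4 to 10.999, 10.998 and 11.035 in KO1, KO2 and KO3 (log2 fold change -1.17, limma adjusted p = 0.00138). Eif4ebp1, a brake on translation that mTOR releases, went from 20.1 ± 6.77 to 7.70 ± 1.36 RPKM. Gabarapl1, an autophagosome protein, went from 13.7 ± 7.15 to 5.21 ± 1.19 RPKM (limma adjusted p = 0.0324), and Pik3ip1, an inhibitor of PI3 kinase, from 7.66 ± 1.90 to 3.23 ± 0.405 RPKM.

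The other called genes of this list were Ulk1, Ccng2, Pnpla2, Ctsl, Txnip, Sqstm1, Cdkn1b, Cdkn1a, Bnip3, Sesn1 and Map1lc3b. The 9 that were not called include Klf15 (-0.60) and Pdk4 (-0.56). The number called, always lower, was 5 without KO1 or KO3, 6 without WT3, 9 without KO2, 13 without WT2 and 17 without WT4. Over all tested genes the lower calls moved as well, from 1021 to 380 without KO1, 342 without KO3 and 393 without WT3. They were 508 without KO2, 617 without WT2 and 1144 without WT4. With library medians made equal the list had 15, where 8.78% of all tested genes were called lower. Calls of Cat, Eif4ebp1, Pik3ip1, Ulk1 and Ccng2 held without each library in turn, and that of Gabarapl1 ended without WT3, KO1, KO2 or KO3 (up to 0.113). Of the 29, 1 had an FDR under 0.05 in the authors' deposited table, Bcl2l11, a death-promoting protein of the BCL2 family under the limma filter, at -1.88 (FDR = 0.0334). The list was drawn up with earlier results of these libraries known, in which several of its genes had been seen to fall.

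**Figure D5:**
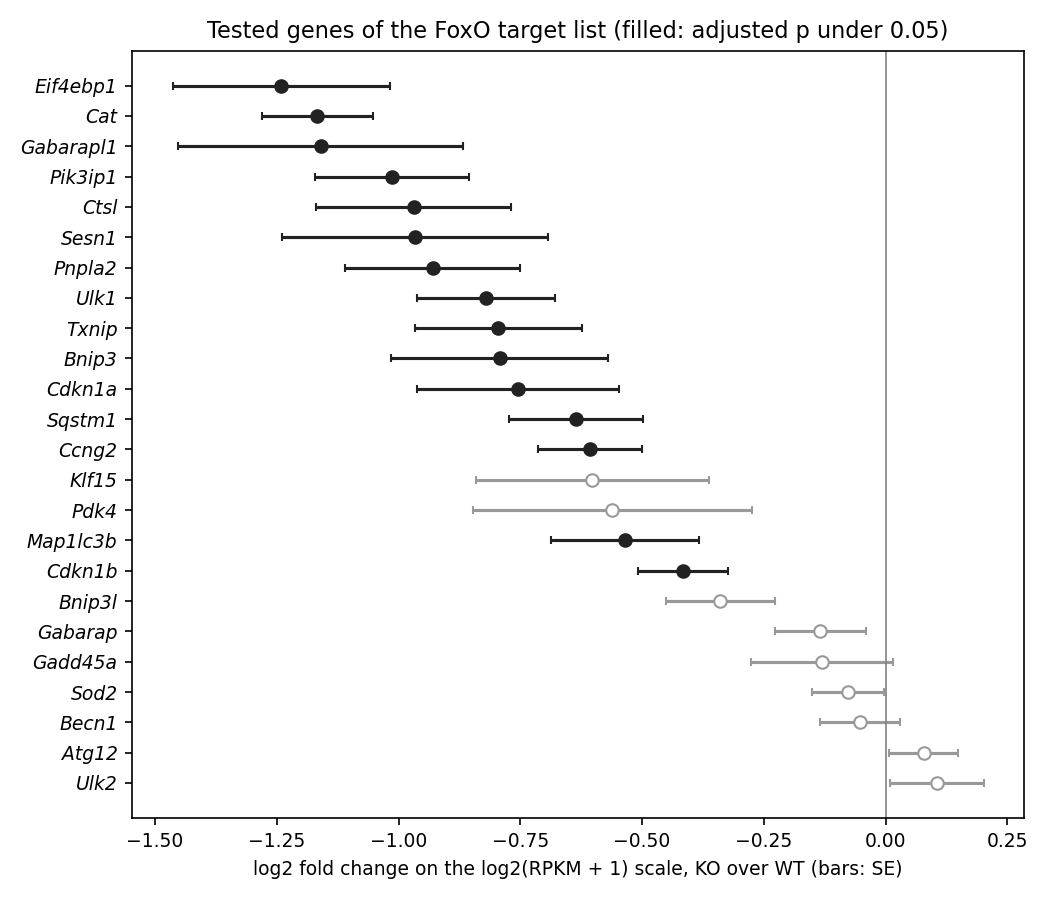
Log2 fold change of KO over WT (horizontal axis, bars for SE) of the 24 tested genes of the FoxO target list, with filled symbols at a limma adjusted p under 0.05. The 15 filled genes lie from -1.24 for Eif4ebp1 to -0.42 for Cdkn1b, and 2 genes, Atg12 and Ulk2, lie above 0.

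Upstream of FoxO, 23 of 34 measured genes were tested, of insulin and AKT signalling and of other regulators, coactivators among them. Of these, 3 rose and 1 fell, against 3.83% and 13.5% of all tested genes, with a median of -0.06. The coactivator Ppargc1a, which can bind FoxO1, rose (log2 fold change 0.94), and so did Sgk1, a kinase that phosphorylates FoxO factors, from 9.14 ± 2.102 to 14.9 ± 1.11 RPKM (0.66, limma adjusted p = 0.0209). Ywhah, an adaptor of the family that holds phosphorylated FoxO in the cytoplasm, went from 8.79 ± 0.423 to 12.0 ± 0.692 RPKM (limma adjusted p = 0.0138). Its tested relatives Ywhab, Ywhae, Ywhag, Ywhaq and Ywhaz were not called. The most abundant, Ywhae, went from 191 ± 15.0 to 210 ± 14.3 RPKM (0.13, limma adjusted p = 0.356). The growth factor Igf2 went from 2.05 ± 0.332 to 1.27 ± 0.161 RPKM (limma adjusted p = 0.0239), and its call ended under equal library medians (adjusted p = 0.108) and without WT3, KO2 or KO3. The calls of Sgk1 (without WT3, KO1 or KO3, up to 0.0855) and Ywhah (without WT3, KO1 or KO2, up to 0.0587) also ended. The list had 1 to 7 calls over the fits without each library, with 1 without WT3 and 2 without KO1, KO2 or KO3, and 7 without WT4. Over all tested genes these fits called 96 to 335 higher and 342 to 1144 lower, against 290 and 1021 with all libraries. Akt1 (-0.34), Akt2 (-0.09), Irs1 (0.13) and Mtor (-0.06) were not called.

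Among partners of the ligases, 18 of 19 genes were tested, 1 rose and 4 fell, against 3.83% and 13.5% of all tested genes, with a median of -0.06. The polyubiquitin gene Ubb fell. It went from 665, 602 and 499 RPKM in WT2, WT3 and WT4 to 382, 382 and 394 in KO1, KO2 and KO3 (log2 fold change -0.60, limma adjusted p = 0.0127). Ubb was no longer called without WT3, KO1 or KO3 (up to 0.0562).

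The ubiquitin-conjugating enzyme Ube2g1, reported to work with Trim63, fell from 8.90 ± 0.473 to 5.41 ± 0.610 RPKM (-0.63, limma adjusted p = 0.00586), and Ube2e1, reported likewise, rose from 2.92 ± 0.217 to 4.09 ± 0.607 RPKM (0.37, adjusted p = 0.0449). The call of Ube2e1 ended without WT2, WT3, WT4, KO1 or KO3 (up to 0.142). Skp1a, which joins F-box proteins to the cullin, was also called, at -0.29, and its call ended under equal library medians (adjusted p = 0.233) and without WT3, WT4 or any KO library (up to 0.147). The scaffold Cul1 was at -0.40 and was not called (limma adjusted p = 0.0518). Without 1 library this list had 1 to 4 calls, where 96 to 335 of all tested genes were called higher and 342 to 1144 lower.

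Most other ubiquitin ligases and deubiquitinases of muscle were not called. Of 26 tested, 3 fell and none rose, a share near the 3.83% higher and 13.5% lower of all tested genes, with a median of -0.07. Rnf115 fell from 18.4 ± 2.59 to 11.9 ± 1.05 RPKM (limma adjusted p = 0.0150), Ubr4, a ligase that recognises N-terminal residues, from 7.87 ± 1.52 to 4.92 ± 0.664 (adjusted p = 0.0322), and Fbxo9 from 6.56 ± 0.775 to 4.43 ± 0.189 (adjusted p = 0.0145). Each of these calls ended without WT3, KO1 or KO3, those of Fbxo9 and Ubr4 also without KO2, and that of Ubr4 without WT2 (up to 0.112). With library medians made equal 2 rose and 3 fell, against 7.95% and 8.78% of all tested genes.

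Of genes for proteins that the ligases are known to bind or degrade, 19 were tested and none rose, against 3.83% of all tested genes. Against 13.5% of all tested genes, 1 fell, the slow myosin-binding protein Mybpc1, from 290, 361 and 162 RPKM in WT2, WT3 and WT4 to 90.8, 167 and 98.1 in KO1, KO2 and KO3 (log2 fold change -1.16, limma adjusted p = 0.0418). Its groups overlapped, and the call ended without WT2, WT3, KO1 or KO3 (up to 0.138). The median was 0.05. The fast myosin Myh4 went from 33597 ± 2395 to 41345 ± 651 RPKM (0.30) and the actin Acta1 from 5609 ± 55.1 to 5823 ± 337 (0.053), and neither was called. The myosins Myh1 (-1.09, limma adjusted p = 0.0225) and Myh2 (-0.90, adjusted p = 0.0261), which are on the fibre marker list and not on this one, fell, and both calls ended without WT2, WT3, KO1 or KO3 (up to 0.103).

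Of 26 tested glucocorticoid, activin and denervation genes, 4 rose and 3 fell, against 3.83% and 13.5% of all tested genes, with a median of -0.13. The 4 include Sgk1, which is also on the upstream list, and the 3 include Foxk1, a forkhead relative of the FoxO factors (-0.43, limma adjusted p = 0.0404), whose call ended without any of the 6 libraries. The glucocorticoid receptor Nr3c1 rose from 3.86 ± 0.483 to 6.01 ± 0.464 RPKM (log2 fold change 0.53, limma adjusted p = 0.0109), as did its target Tsc22d3 (0.41, adjusted p = 0.0318), while Fkbp5 (0.23), Klf9 (-0.38) and Klf15 (-0.60) were not called. Smad3, a signal carrier of activin and myostatin, rose from 2.30 ± 0.819 to 4.50 ± 0.133 RPKM, and Mstn, the growth inhibitor itself, fell from 14.5 ± 2.39 to 9.50 ± 1.45 (limma adjusted p = 0.0310). Myog, which drives Fbxo32 and Trim63 after denervation, fell from 2.18 ± 0.269 to 1.21 ± 0.410 RPKM (limma adjusted p = 0.0293), but not under equal library medians (adjusted p = 0.0627). Nr3c1 was no longer called without WT3 or KO3 (up to 0.0567), Smad3 and Tsc22d3 without WT3, KO1 or KO3 (up to 0.124), Myog without WT2, WT3, KO2 or KO3, and Mstn without WT2, WT3, KO1 or KO2 (up to 0.110). The list had 0 to 10 calls over the fits without each library, where 96 to 335 of all tested genes were called higher and 342 to 1144 lower. In the authors' deposited table Tsc22d3 (0.58, FDR = 0.0182) and the activin receptor Acvr2b (-1.27, FDR = 0.0409), under the limma filter, passed. Myog was nearly unchanged there (-0.10, FDR = 0.901). Nr3c1 (0.59, FDR = 0.0514), Smad3 (0.72, FDR = 0.215) and Mstn (-0.32, FDR = 0.213) kept their direction but did not pass.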

How the data were processed

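The authors deposited 1 table of values per gene for the 6 gastrocnemius libraries. The 6 expression columns carry no unit in the header, and their deposited values behave as RPKM. The submitters' processing notes name GRCm39. Aligner, counting program, annotation and use of strand are not stated. The log2 fold change, log2 CPM, F score, p-value and FDR columns are the authors', per the file headers, and their test is not given. All value columns were mapped.

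Whole reads were recovered from RPKM, exon length and total reads for 100% of the 11815 genes (tolerance 0.02 of a read). GENCODE M21 exon lengths served for 9240 genes. For 2575, the length was the whole number that gave whole reads with the mean nearest the authors' log2 CPM (gap under 0.5). Fbxo32 was among these, at 6936 bases (6976 in M21). The totals limit precision little beside the spread between libraries.

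The test was limma-trend with genotype as the only term (limma 3.58.1, R 4.3.3) on log2(RPKM + 1), which understates the change of low genes. Groups and replicate numbers came from sample titles. The 10 genes, the gene lists and the tests were chosen with earlier results of these data known. Named beyond the 10 were up to 4 called genes of a list with the largest changes, and genes named only to say that they were not called, the authors' own calls, other called list genes, called marker genes and genes on the opposite strand were chosen after their values were seen. Pairs of genes were compared by exact permutation over libraries with SciPy 1.17.1. limma was tested on simulated data. Alternatives were a pseudocount of 0.1, no filter, equal library medians, limma-voom, each library left out, replicate number as a block, an unadjusted p and the authors' FDR. limma-voom without a filter was added after seeing the data. A called gene of the partner list is counted but not reported here.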

Additional observations from a re-analysis of the deposited data

How the results depend on the processing

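With 3 libraries a group, calls moved both ways when 1 was left out, and without WT4 they rose to 335 higher and 1144 lower over all genes. Replicate numbers 2 and 3 occur in both groups, and nothing in the labels says that they pair the samples. Deviations from the group means correlated over 7574 genes at 0.48 for number 2 and 0.27 for number 3. Among pairs of unlike number, WT4 with KO1 correlated at 0.43 and the others at -0.39 to -0.05. Whether the numbers pair the samples was not tested. With replicate number as a block (1 residual degree of freedom) Trim63 (-1.29, limma adjusted p = 0.0149) and Fbxo30 (-0.42, adjusted p = 0.0417) passed. In that fit 4 of the 10 genes were thus called lower, against 15.5% of all tested genes. WT4 and KO1 share their numbers with no other library, so its changes rest only on WT2 against KO2 and WT3 against KO3. They leave out WT4, where Trim63 lay within the KO range. The block gave 5 calls among the 26 tested genes of the other ligase list, all lower, and changed the call of none of the other 8 genes. In the authors' deposited table no gene of the 10 passed as lower (0), where only 107 of all 11815 genes did. Fbxo32 at -1.61, Fbxo31 at -0.56 and Trim55 at 0.43 were not past FDR 0.05 there. Foxo3 was at 0.041 and Fbxo40 at 0.050 there, and Fbxo40 was at 0.020 with equal medians. With no filter, in limma-trend and in limma-voom, 2 genes were called higher, against 3.2% and 3.42% of all genes. At an unadjusted p under 0.05 Trim63 (-1.10) passed, as did 33.4% of all tested genes.

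Over all tested genes 290 were called higher and 1021 lower. The counts were 602 and 665 with equal medians, 575 and 1957 at an unadjusted p under 0.05, and 84 and 107 by the authors' FDR, and 1607 were lower in limma-voom with no filter. By the authors' FDR 1.62% of all genes passed. Calls per list were then 1 of 29 FoxO targets, 1 of 34 upstream genes, 0 of 19 partners and 0 of 33 other ligases. They were 0 of 20 substrates and 2 of 39 glucocorticoid, activin and denervation genes. At an unadjusted p under 0.05, 33.4% of all tested genes passed. In that count the lists had 10 of 23 upstream genes, 10 of 18 partners, 8 of 26 other ligases, 3 of 19 substrates and 12 of 26 in the last list. With no filter 5 of 33 other ligases were called, against 3.2% higher and 12.4% lower of all genes. With equal medians 5 of 26 were, against 7.95% and 8.78%. In limma-voom 2 of 19 substrates were, against 4.09% and 14.3%. The cause of these moves was not tested.

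Without each library in turn, log2 fold changes ranged from -0.18 to 0.020 for Foxo3, -0.18 to -0.11 for Foxo4, -2.24 to -1.70 for Fbxo32, -0.47 to -0.15 for Fbxo30, -0.80 to -0.51 for Fbxo31, -0.21 to 0.018 for Fbxo40, -1.50 to -0.60 for Trim63, -0.22 to -0.14 for Trim54, 0.27 to 0.42 for Trim55 and 0.55 to 0.71 for Foxo1. Of the 10 genes 0 were called higher with the filter and 1 to 3 lower. Over all genes 96 to 335 were higher and 342 to 1144 lower. Calls ranged from 5 to 17 for FoxO targets, 1 to 7 upstream, 1 to 4 for partners, 0 to 5 for other ligases, 0 to 2 for substrates and 0 to 10 in the last list. Differences between pairs kept their direction in all fits run.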
